A study of Vitis vinifera with 27 samples.

Results

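AP2/EREBP genes encode transcription factors with an AP2/ERF DNA-binding domain, and 114 of the 28940 genes in the expression table of ripening Cabernet Sauvignon berries belong to the family by their annotation. A gene was taken as a member when its first KEGG orthology entry was an EREBP-like factor (106 genes) or when the name of its closest protein contained the words for an ethylene-responsive transcription factor or a dehydration-responsive element-binding protein (36 genes, 8 of them by these words alone). No expression value entered this choice. The berries came from own-rooted, field-grown vines of a single cultivar in which the basal leaves of shoots with clusters were removed at véraison (LR-V), moved aside and tied back at véraison (LM-V), or left in place (C, untreated control). All 3 treatments were sampled at E-L 36, E-L 37 and E-L 38, stages of the Eichhorn-Lorenz scale that run from berries of intermediate sugar to harvest-ripe berries. Each replicate was a pool of deseeded berries from many vines, with 3 replicates (A, B and C) in each of 9 groups and 27 libraries in all. Both treatments expose clusters to more sunlight, but LR-V also takes away leaves that feed the fruit.

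The family falls into branches with different known roles, mostly from Arabidopsis. CBF/DREB1 and DREB2 proteins bind dehydration-responsive elements and switch on genes of the cold, drought and heat responses. Members of the ERF branch bind GCC-box elements downstream of ethylene and jasmonate, and include activators such as ERF1A, ERF2 and ERF5 and the repressor ERF4. RAP2.12 and RAP2.3 belong to the group VII factors that sense oxygen, RAP2.6 and ABR1 take part in stress and abscisic acid responses, and AINTEGUMENTA-like (AIL) proteins with a pair of AP2 domains act in organ growth.

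Roles were read from the closest protein or from the gene of the KEGG match. By these, 10 members were CBF/DREB1-like, 5 were DREB2-like and 10 carried other DREB-type words. All 10 CBF/DREB1-like genes rest on an Arabidopsis KEGG match, as their closest protein is unnamed. On the ERF side 21 were like ERF1A, ERF2 or ERF5, 9 were like RAP2.6 or ABR1, 2 were named ERF4 and 2 were named as group VII factors. Among the 21, position in the chromosome 16 run was also used, and VIT_216s0013g01000 was placed by position alone. A further 4 were AP2-, AIL- or WRI1-like and 1 was WIN1-like, whereas 50 were placed only at the level of the family. The annotation was thin for many of them, since 56 members had an unnamed or uncharacterized protein as closest hit and 19 had none. VIT_200s0929g00020 is a doubtful case, as its KEGG hit is a kinase although its closest protein is AIL6-like. On chromosome 16, 16 members lie in one run of neighbouring IDs from VIT_216s0013g00890 to VIT_216s0013g01120. The closest protein was ERF5 or ERF5-like for 9 of them and unnamed for the others, several share one closest protein, and reads of near-identical copies could have been split among them.

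Expression is given as FPKM, fragments scaled by transcript length and by mapped reads, so that levels can be compared between genes of different length. Library totals ran from 600395 to 690035 FPKM and 16516 to 17698 genes reached an FPKM of 1. Read counts are not in the table, but the steps between low values placed the libraries within 0.917 to 1.04 of the depth of C replicate A at E-L 36. Transcripts of 2 seed storage genes, which deseeded berries should lack, stood high (log2 index over 3) in 6 libraries, namely 1 of LR-V at E-L 36 (replicate A), 2 of LR-V (B and C) and 1 of LM-V (B) at E-L 37, and 2 of LR-V at E-L 38 (A and C). The highest index in any C library was 1.73. All 9 green tissue markers were detected, and their summed expression at E-L 38 was 318, 158 and 455 FPKM in the LR-V libraries and 106 to 135 FPKM in LM-V berries, against 54.7 to 62.1 FPKM in C. At E-L 36 it was 301 to 458 FPKM in LR-V berries and 212 to 291 FPKM in LM-V berries, against 149 to 207 FPKM in C, so that both treatments lay above C at both stages. At E-L 37 it was 170 to 197 FPKM in LR-V berries, above every C library (106 to 149 FPKM). LM-V berries, with 131 to 153 FPKM, overlapped with C at that stage. Of 16 ripe berry markers (thaumatin-like genes and UFGT, the anthocyanin glucosyltransferase), 13 were detected. Their sums overlapped between treatments and C at E-L 36 and E-L 38, but at E-L 37 they were 564 to 1264 FPKM in LR-V berries and 1382 to 1768 FPKM in LM-V berries, against 2023 to 2767 FPKM in C. Both sums rest mostly on few genes. The ribulose bisphosphate carboxylase small chain gene VIT_217s0000g03690 averaged 167 FPKM over all libraries, and no other green tissue marker exceeded 9.97 FPKM. The thaumatin-like genes VIT_202s0025g04300 and VIT_202s0025g04310 averaged 875 and 633 FPKM, and the next ripe berry marker averaged 51.0 FPKM. In these bulk samples, fewer cells of a type and less RNA per cell cannot be told apart.

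Of the 114 members, 4 were at 0 in every library, and 72 reached FPKM 1 in at least 3 libraries and were tested. The 42 that were not tested never exceeded 2.13 FPKM, the value of VIT_214s0108g01220 in its highest library. VIT_209s0002g00470, annotated as the group VII factor RAP2-12-like, was the most abundant with a mean of 328 FPKM, and its 27 libraries lay between 270 and 391 FPKM. It was called in none of the 15 comparisons made. The ERF4-like VIT_212s0028g03270 came next with a mean of 120 FPKM, followed by the ERF003-like VIT_204s0008g06000 (98.6), VIT_200s0662g00040 (83.9), the CBF1-like VIT_216s0100g00400 (80.4) and the ERF5-like VIT_216s0013g01120 (67.3). The libraries of the first gene lay above all libraries of the second, whereas each later pair of neighbours in this order overlapped. Summed over all members, expression was 1938 ± 32.4 FPKM in LR-V, 1802 ± 54.9 in LM-V and 1724 ± 45.9 in C at E-L 36 (SD, n = 3 each). At E-L 38 the sums were lower in every group, at 1286 ± 236 FPKM in LR-V, 1102 ± 24.2 in LM-V and 1220 ± 16.8 in C.

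Members were counted as changed when the adjusted p of limma's moderated test over 19761 genes was under 0.05. Relative to C, LR-V changed 7 of 72 members at E-L 36 (9.72%), 11 in the E-L 37 berries (15.3%) and 25 in the E-L 38 berries (34.7%). Over all genes tested 5.54%, 5.01% and 17.8% were called in these comparisons. LM-V changed 0, 1 and 12 members at the same stages, against 0.0708%, 0.572% and 9.5% of all genes. The median log2 fold change of the members in LR-V was 0.16, 0.09 and 0.23, beside 0.02, -0.09 and 0.02 over all genes. In LM-V it was 0.00, 0.06 and -0.24, beside -0.01, -0.08 and -0.02. Beside the 0 calls in LM-V at E-L 36 (0.0607% of all genes higher, 0.0101% lower), 12 members had an unadjusted p under 0.05. A rule of fold change at least 2 with a NOISeq-like probability of at least 0.8 picked 3. Neither count was made over all genes.

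**Figure D1:**
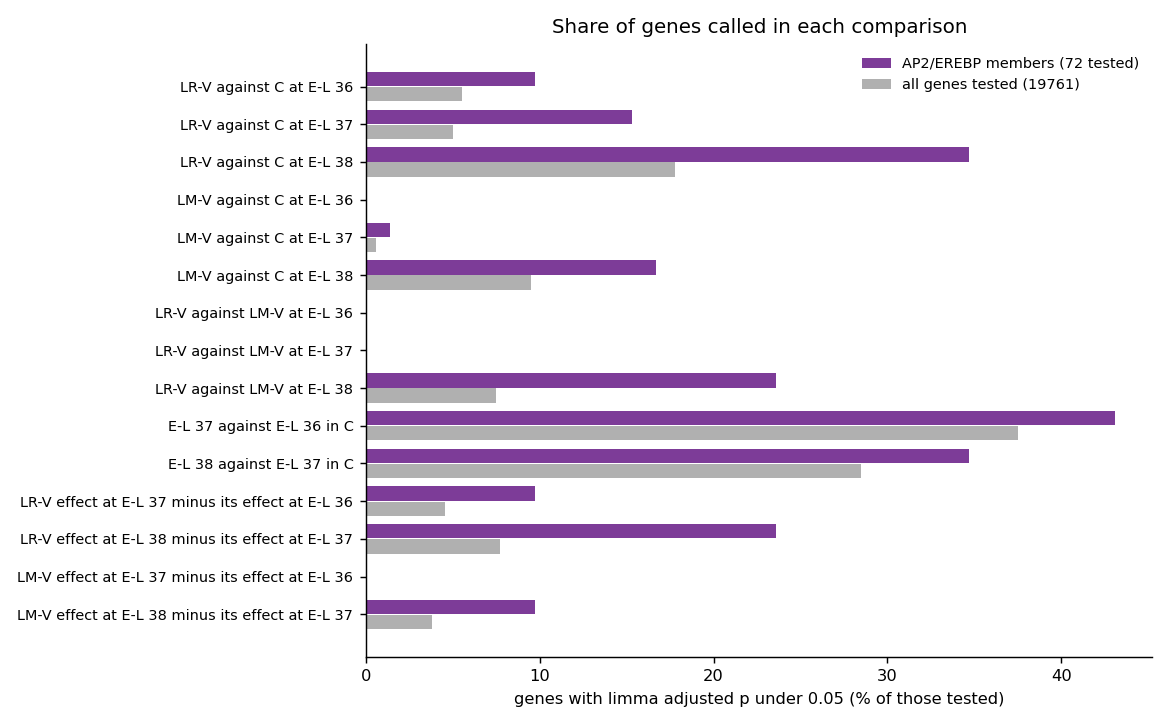
Share of genes called by limma (adjusted p under 0.05, x axis, in percent of those tested) in each of the 15 comparisons (rows). Purple bars stand for the 72 tested AP2/EREBP members and grey bars for all 19761 genes; the member share was 34.7% against 17.8% for LR-V against C at E-L 38 and 43.1% against 37.5% for E-L 37 against E-L 36 in C.

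During ripening of untreated berries, members were called in shares not far above those of all genes. In C, 31 of 72 members (43.1%) differed between E-L 37 and E-L 36, 15 of them higher and 16 lower. Over all genes 37.5% were called (27.6% higher, 9.95% lower). Between E-L 38 and E-L 37, 25 members (34.7%) differed, 4 of them higher and 21 lower. Here 28.5% of all genes were called (10.9% higher, 17.6% lower). The median of all genes was 0.19 log2 units higher at E-L 37 than at E-L 36, and with scaling by median of ratios, which removes that shift, the calls were 10 higher and 21 lower. The largest rise was that of the ERF1A-like VIT_216s0013g00890, with 13.9, 12.3 and 16.3 FPKM at E-L 37 against 2.94, 2.47 and 1.79 FPKM at E-L 36 in C. The stages did not overlap, and the log2 fold change was 2.16 ± 0.25 (SE, adjusted p = 1.38e-06). VIT_209s0002g09140, a family member without a named relative, had 6.45, 7.97 and 5.62 FPKM at E-L 37 against 1.60, 1.61 and 1.79 FPKM at E-L 36 (1.52, adjusted p = 0.00027). The AIL6-like VIT_200s0929g00020 reached 22.8 ± 2.95 FPKM at E-L 37 against 7.70 ± 2.17 at E-L 36 (adjusted p = 2.23e-05). The RAP2.6-like VIT_201s0150g00120, also named ERF113, averaged 3.94 ± 1.02 FPKM at E-L 37 and 0.963 ± 0.0751 at E-L 36 (1.31, adjusted p = 0.000253). VIT_218s0001g10150 averaged 53.9 ± 4.86 FPKM at E-L 37 and 22.8 ± 2.95 at E-L 36 (1.21, adjusted p = 6.97e-05). The call of none of these 5 genes was lost when any single library was left out. VIT_216s0013g01060 and VIT_209s0002g03940, also among the 15 higher at E-L 37, each reached FPKM 1 in only 3 libraries. For the first these included C replicates A and B of E-L 37, for the second C replicates B and C of E-L 37. Their places in that count are thus no independent support.

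The abundant ERF5-like VIT_216s0013g01120 peaked at E-L 37, with 59.1 ± 5.42, 104 ± 8.73 and 69.9 ± 4.02 FPKM in C at E-L 36, 37 and 38 (adjusted p = 0.000172 for the first step and 0.00529 for the second). The ERF1A-like VIT_202s0234g00130 averaged 42.7 ± 8.16, 71.1 ± 6.84 and 26.1 ± 3.20 FPKM. Its rise was not called with scaling by median of ratios (adjusted p = 0.0582) or without C replicate C at E-L 36 (0.0589), whereas the fall to E-L 38 had an adjusted p of 5.76e-05. Harvest ripeness brought mostly lower values. VIT_218s0001g03240 had 11.0, 8.83 and 16.3 FPKM at E-L 38 against 40.2, 35.9 and 38.5 FPKM at E-L 37 in C (-1.63 ± 0.16, adjusted p = 2.35e-07). VIT_204s0008g06000 averaged 36.4 ± 6.70 FPKM at E-L 38 and 108 ± 4.46 at E-L 37 (-1.56, adjusted p = 5.84e-07), and the ERF4-like VIT_212s0028g03270 averaged 56.2 ± 7.53 and 156 ± 15.3 (-1.46, adjusted p = 0.000237). ERF4 is a repressor of ethylene and abscisic acid responses in Arabidopsis. The drought responsive element binding protein gene VIT_207s0031g00190 fell at both steps, with 49.1 ± 5.81, 24.2 ± 1.30 and 11.6 ± 3.13 FPKM at E-L 36, 37 and 38 (adjusted p = 0.000503 and 0.000476). Among the 4 higher genes at E-L 38, VIT_200s0662g00040 averaged 95.7 ± 12.8 FPKM against 72.5 ± 3.07 at E-L 37 (0.39, adjusted p = 0.0103), and that call was lost without C replicate A at E-L 38 (0.0835).

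The CBF/DREB1-like genes mostly fell as berries ripened and were higher in LR-V berries at E-L 37. Of 6 tested, 5 fell in C between E-L 36 and E-L 37 and none rose, and 5 were higher in LR-V than in C at E-L 37, where 1.79% of all genes were called higher. Among these 5, VIT_202s0025g04440 reached FPKM 1 in 4 libraries, all of them LR-V and including every LR-V library of E-L 37. It was thus tested only through the treatment in which it was high, and its place in the count is no independent support. The CBF1-like VIT_216s0100g00400 had 98.2, 93.4 and 91.6 FPKM in LR-V berries and 81.0, 96.7 and 62.3 FPKM in LM-V berries, against 54.6, 47.9 and 45.2 FPKM in C at E-L 37. Every LR-V library stood above every C library, and so did every LM-V library. The log2 fold change was 0.93 ± 0.17 in LR-V (adjusted p = 0.00357). The CBF2-like VIT_202s0025g04460 had 45.3, 41.4 and 47.1 FPKM in LR-V berries and 38.7, 34.0 and 23.8 FPKM in LM-V berries, against 17.1, 11.8 and 5.93 FPKM in C (LR-V 1.96 ± 0.40, adjusted p = 0.00647). The CBF3-like VIT_219s0138g00090 had 44.5, 48.9 and 51.2 FPKM in LR-V berries and 36.8, 25.2 and 20.2 FPKM in LM-V berries, against 19.1, 9.78 and 3.73 FPKM in C (LR-V 2.28 ± 0.43, adjusted p = 0.00393). VIT_216s0100g00380, also CBF3-like, had 17.89, 17.98 and 15.95 FPKM in LR-V berries and 13.3, 20.6 and 12.9 FPKM in LM-V berries, against 9.87, 3.76 and 0.83 FPKM in C. In each of these 4 genes the treated libraries lay above all 3 C libraries at E-L 37, and the C libraries differed widely among themselves in the last 3. As the 4 genes are among those called higher in LR-V at this stage, the LR-V separation follows largely from that choice. The LM-V separation uses the same 3 C libraries, and the count was not made over all genes.

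VIT_216s0100g00380 was the only member called in LM-V against C at E-L 37 (1.83 ± 0.38, adjusted p = 0.0256, in LM-V; adjusted p = 0.00382 in LR-V), where 0.369% of all genes were higher. The LM-V call was lost without LM-V replicate A (adjusted p = 0.0582), LM-V replicate B (0.199), C replicate B (0.0827) or C replicate C (0.1), and without LM-V replicate C 3 members were called, without C replicate A 2. The fifth gene, the CBF1-like VIT_202s0025g04440, was expressed at 1.34, 1.59 and 2.22 FPKM in LR-V and at 0.67, 0.45 and 0.45 FPKM in LM-V, against 0.22, 0.24 and 0 FPKM in C (LR-V 1.23 ± 0.18, adjusted p = 0.000423). The sixth, the CBF3-like VIT_211s0016g02140, went the other way during ripening, with 1.68, 2.73 and 5.63 FPKM as C means at E-L 36, 37 and 38, and was not called between treatments. LR-V and LM-V were not called apart for any member at E-L 37 (0 of 72, 0% of all genes). Among the members, 7 had an unadjusted p under 0.05 and the NOISeq-like rule picked 2, without counts over all genes. The shared controls enter the comparisons of both treatments. With only the groups compared, the LR-V calls of VIT_219s0138g00090 (adjusted p = 0.0986), VIT_216s0100g00380 (0.153) and VIT_202s0025g04440 (0.052) were lost, and that of VIT_219s0138g00090 was also lost with a pseudocount of 0.1 (0.0596). Ripe berry marker sums at E-L 37 were lower in every LR-V and LM-V library than in every C library, and their part in the higher CBF-like values was not tested. Green tissue marker sums were higher in every LR-V library than in every C library at this stage, and their part was not tested either.

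At the other stages no CBF-like gene was called between a treatment and C. VIT_216s0100g00400 ran from 118 to 183 FPKM in LR-V against 102 to 115 FPKM in C at E-L 36, and from 27.1 to 35.2 FPKM in LR-V against 20.5 to 31.2 FPKM in C at E-L 38, where the groups overlapped. VIT_216s0100g00380 was at 0.54, 0.34 and 0.71 FPKM in LR-V and at 0, 0.51 and 0.36 FPKM in LM-V, against 0.84, 0.82 and 1.79 FPKM in C. The effect of LR-V at E-L 38 minus its effect at E-L 37 was -2.47 ± 0.54 for this gene (adjusted p = 0.00678), and that of LM-V was -2.56 ± 0.54 (adjusted p = 0.0095), and both were lost with only the groups compared (0.0596 and 0.073) and without the libraries of high seed storage index (0.162 and 0.0641). In LR-V at E-L 37, replicate A with a seed storage index of 0.242 had 98.2 FPKM of VIT_216s0100g00400 and replicate B with an index of 4.84 had 93.4 FPKM. For VIT_219s0138g00090 and VIT_202s0025g04440, replicate A had the lowest LR-V value (44.5 and 1.34 FPKM). For VIT_202s0025g04460 and VIT_216s0100g00380 it lay between replicates B and C. Apart from the fit given next, the part of seed tissue in these values was not tested. Only 1 LR-V library is left at E-L 37 without the libraries of high index, and of the 11 calls in LR-V 2 then remained, VIT_202s0025g04460 and VIT_216s0100g00400.

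**Figure D2:**
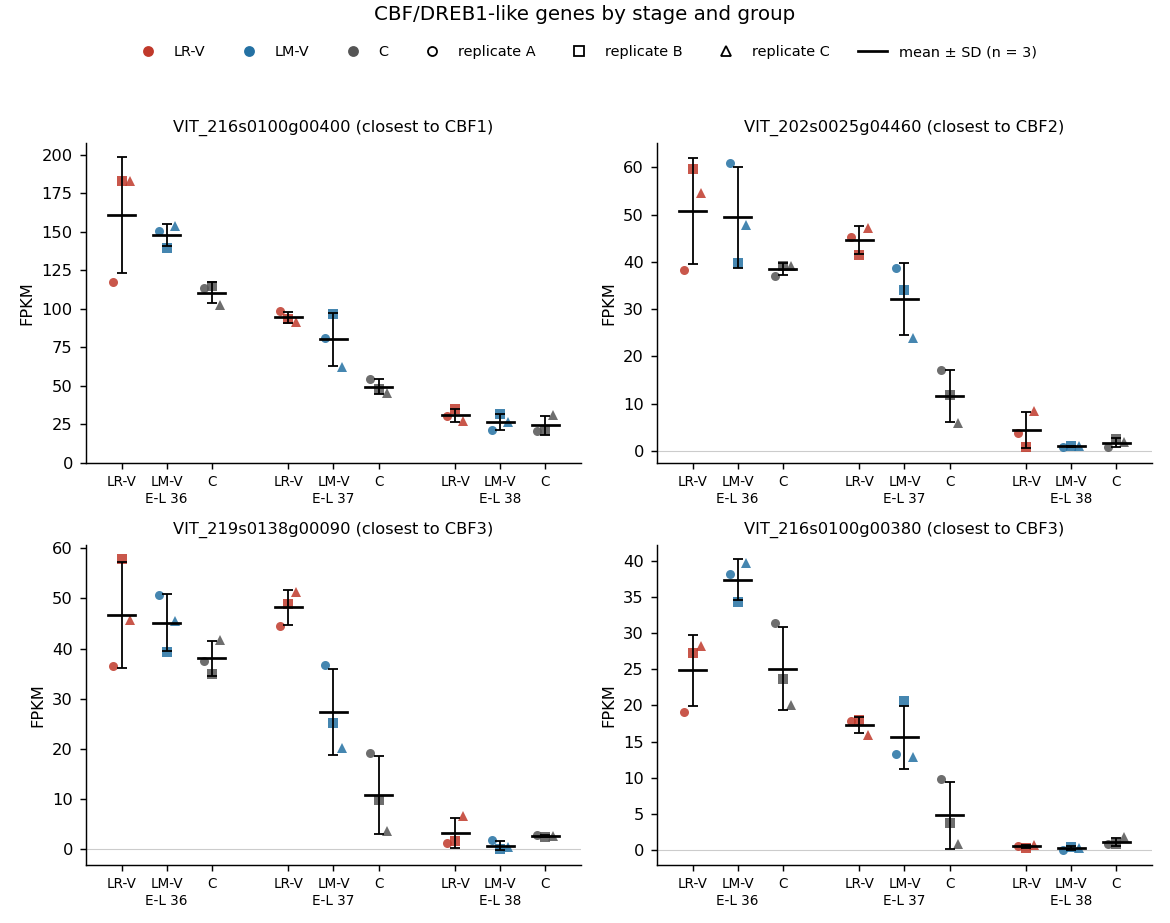
FPKM (y axis) of 4 CBF/DREB1-like genes in LR-V, LM-V and C berries at E-L 36, 37 and 38 (x axis); points are libraries, lines the mean and bars the SD of 3 replicates. At E-L 37 all LR-V and LM-V libraries lie above the C libraries, and at E-L 38 VIT_216s0100g00400 lies between 20.5 and 35.2 FPKM in all groups. The 4 genes are among those called higher in LR-V than in C at E-L 37.

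Outside the CBF-like genes, LR-V berries at E-L 37 had 4 further members higher and 2 lower. In all, 9 of 72 members were higher and 2 lower at this stage, against 1.79% and 3.23% of all genes. Of the 2 lower genes, the ERF5-like VIT_216s0013g01060 had 0 FPKM in every LR-V library, against 2.94, 2.53 and 0 FPKM in C. It passed the filter through C replicates A and B of E-L 37 and LR-V replicate C of E-L 38 (1.01 FPKM). Its place in the count is thus no independent support. VIT_218s0001g03240, for which no closest protein is given, had 71.6, 60.7 and 65.4 FPKM in LR-V against 40.2, 35.9 and 38.5 FPKM in C at E-L 37 (0.77 ± 0.16, adjusted p = 0.00638), with 66.2, 70.7 and 47.1 FPKM in LM-V. Its call ended without the libraries of high seed storage index (adjusted p = 0.06). The RAP2.6-like VIT_203s0063g00460 averaged 24.4 ± 3.29 FPKM in LR-V and 8.54 ± 6.14 in C, but this call (adjusted p = 0.029) held without only 1 of the 6 libraries, C replicate A, and reached adjusted p values of 0.0547 to 0.166 without each of the other 5. VIT_211s0016g00660 (adjusted p = 0.0477) was lost in the same way, and likewise held only without C replicate A. The AIL6-like VIT_200s0929g00020 was lower, with 11.3, 14.6 and 10.8 FPKM in LR-V against 26.2, 21.7 and 20.6 FPKM in C (-0.86 ± 0.22, adjusted p = 0.0278). Groups did not overlap, although the call ended with scaling by median of ratios (0.0608) and without any of the 6 libraries except LR-V replicate B (0.056 to 0.135). The count of 11 became 7 without LR-V replicate A, LR-V replicate C or C replicate B at E-L 37.

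At E-L 36, LR-V berries had 7 members higher than C and none lower, where 4.08% of all genes were higher and 1.46% lower. With scaling by median of ratios, 1 member was lower. The greatest difference was in VIT_207s0031g01980, named ABR1 by its closest protein and RAP2.6 by its Arabidopsis match. ABR1 is a repressor of abscisic acid responses in Arabidopsis. It had 57.7, 37.7 and 19.3 FPKM in LR-V berries and 17.2, 4.55 and 2.43 FPKM in LM-V berries, against 3.36, 0.66 and 2.69 FPKM in C. LR-V lay above both other groups in every library, and LM-V overlapped with C. The log2 fold change in LR-V was 3.58 ± 0.54 (adjusted p = 0.000401). The gene remained higher in LR-V at E-L 37 (6.79, 7.56 and 9.18 FPKM, against 0.28, 0.81 and 0.28 FPKM in C, 2.61 ± 0.54, adjusted p = 0.00702, and 0.0692 without the libraries of high seed storage index), while at E-L 38 it was at 0.96 to 3.91 FPKM in LR-V and 0.61 to 1.20 FPKM in C, which was not called. VIT_218s0072g00260, likewise matched to RAP2.6, had 26.8, 20.6 and 12.4 FPKM in LR-V berries and 9.23, 5.88 and 4.68 FPKM in LM-V berries, against 2.56, 1.09 and 3.26 FPKM in C at E-L 36 (LR-V 2.66 ± 0.45, adjusted p = 0.00121). Here all LM-V libraries also exceeded all C libraries, without passing the test. Both genes were highest in replicate A of LR-V, a library with a seed storage index of 3.84, and second highest in replicate B with an index of 0.167. Both calls held without any single library and without the libraries of high index. The part of seed tissue in these values was otherwise not tested.

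**Figure D3:**
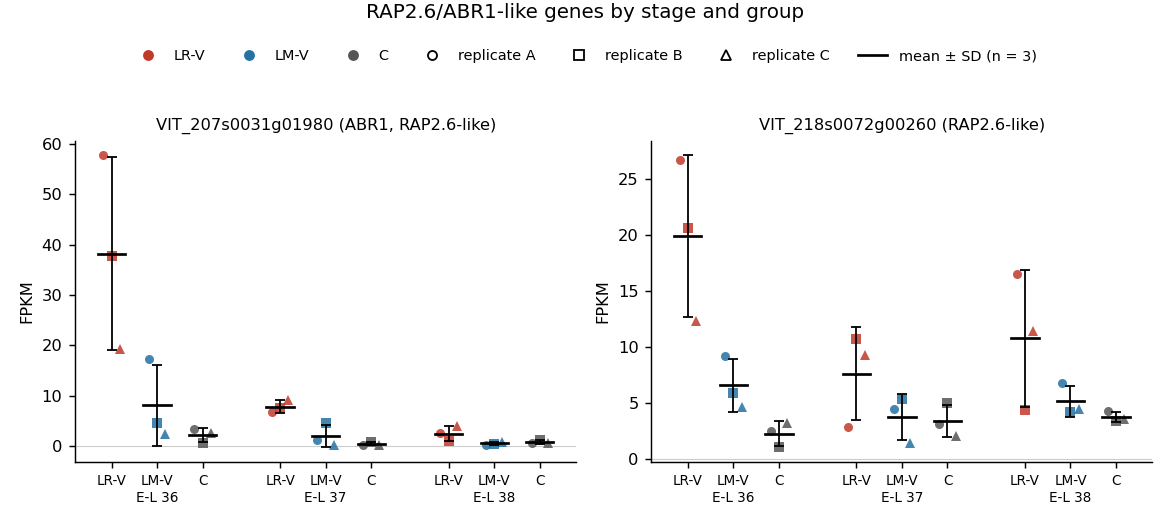
FPKM (y axis) of 2 RAP2.6/ABR1-like genes in LR-V, LM-V and C berries at E-L 36, 37 and 38 (x axis); points are libraries, lines the mean and bars the SD of 3 replicates. At E-L 36 the LR-V libraries lie between 19.3 and 57.7 FPKM for VIT_207s0031g01980, above all LM-V and C libraries.

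The other members called in LR-V at E-L 36 changed less. VIT_218s0001g10150 had 52.5, 43.4 and 41.6 FPKM in LR-V against 25.8, 19.9 and 22.6 FPKM in C (0.98 ± 0.20, adjusted p = 0.00537), and its call held without any single library. The ERF1A-like VIT_202s0234g00130 averaged 81.2 ± 11.2 FPKM in LR-V and 42.7 ± 8.16 in C (0.92, adjusted p = 0.0161), and VIT_207s0005g00820 averaged 47.1 ± 7.32 and 20.7 ± 4.12 (1.15, adjusted p = 0.0388). In both genes the groups did not overlap. The call of VIT_202s0234g00130 was lost without LR-V replicate A (adjusted p = 0.085), C replicate B (0.0617) or C replicate C (0.0885), and that of VIT_207s0005g00820 without LR-V replicate A (0.119), LR-V replicate B (0.134), C replicate B (0.148) or C replicate C (0.106). VIT_206s0004g08190 had 21.6, 12.8 and 9.24 FPKM in LR-V against 6.17, 7.43 and 6.50 FPKM in C (adjusted p = 0.0331), but the call held without LR-V replicate C only and ended with the seed storage index as a covariate (0.0783). Without C replicate B or C replicate C at E-L 36, 3 and 4 of the 7 members were called. LR-V and LM-V were not called apart for any member at this stage (0 of 72, 0.0354% of all genes). Without LR-V replicate C or LM-V replicate A, 1 member was called. Among the members, 8 had an unadjusted p under 0.05 and the NOISeq-like rule picked 4, without counts over all genes.

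At E-L 38 the chromosome 16 run of ERF genes was expressed at higher levels in LR-V. Of its 15 tested genes, 11 were higher in LR-V than in C and 2 were lower, whereas over all genes 10.1% were higher and 7.66% lower. VIT_216s0013g00950 had 27.1, 8.25 and 48.6 FPKM in LR-V berries and 1.48, 0 and 1.17 FPKM in LM-V berries, against 2.37, 1.67 and 4.37 FPKM in C. LR-V was above the other groups in every library, but replicates A and C were far above replicate B. The log2 fold change was 2.69 ± 0.49 against C (adjusted p = 0.000629) and 3.74 ± 0.49 against LM-V (adjusted p = 0.000247). VIT_216s0013g00970 had 8.62, 3.11 and 18.2 FPKM in LR-V berries and 0, 0 and 0.76 FPKM in LM-V berries, against 0.62, 0.38 and 0.83 FPKM in C (2.51 ± 0.42 against C, adjusted p = 0.000287). VIT_216s0013g00990 had 14.6, 3.67 and 23.6 FPKM in LR-V berries and 0, 0 and 1.54 FPKM in LM-V berries, against 0.80, 1.59 and 2.16 FPKM in C (2.31 ± 0.46, adjusted p = 0.00125). The pattern repeated in VIT_216s0013g01070, with 12.1, 1.14 and 15.2 FPKM in LR-V berries and 0.40, 0.34 and 0.44 FPKM in LM-V berries, against 0.63, 0.56 and 0.82 FPKM in C (2.21 ± 0.44, adjusted p = 0.00136). ERF5 takes part in defence and osmotic stress responses in Arabidopsis.

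In all 11 of these genes, LR-V replicates A and C exceeded every C library, and in 9 of them they exceeded each of the other 24 libraries of the series. Replicate B exceeded every C library in 9 of 11, by smaller margins. The 11 genes were picked because they were called higher in LR-V than in C at this stage, so these counts follow largely from that choice. The same counts were not made over all genes. Reads may be split among near-identical copies, so the genes are not independent repeats. Summed over the 15 cluster members other than VIT_216s0013g01120, expression was 148, 40.9 and 234 FPKM in the LR-V libraries and 16.7 to 23.3 FPKM in LM-V, against 26.98 to 36.7 FPKM in C at E-L 38. Replicates A and C are the LR-V libraries at E-L 38 with a high seed storage index (4.01 and 3.27, against 0.989 in replicate B) and with the highest green tissue marker sums. At the earlier stages the libraries of high index had sums of 50.8 to 62.3 FPKM, and all libraries of E-L 36 and E-L 37 had 22.9 to 75.9 FPKM. Within LR-V at E-L 36, replicate A of high index had 50.8 FPKM, against 22.9 and 28.1 FPKM in replicates B and C, while within LR-V at E-L 37 replicates B and C of high index had 55.8 and 60.1 FPKM, against 61.6 FPKM in replicate A. With the seed storage index as a covariate 20 of 72 members were called in LR-V against C at E-L 38 (11 higher, 9 lower). Without the 6 libraries of high index, which leaves replicate B alone in LR-V at E-L 38 and assumes that it varies like the other groups, 7 were called, all lower. The part of seed or green tissue in the cluster's expression was otherwise not tested.

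**Figure D4:**
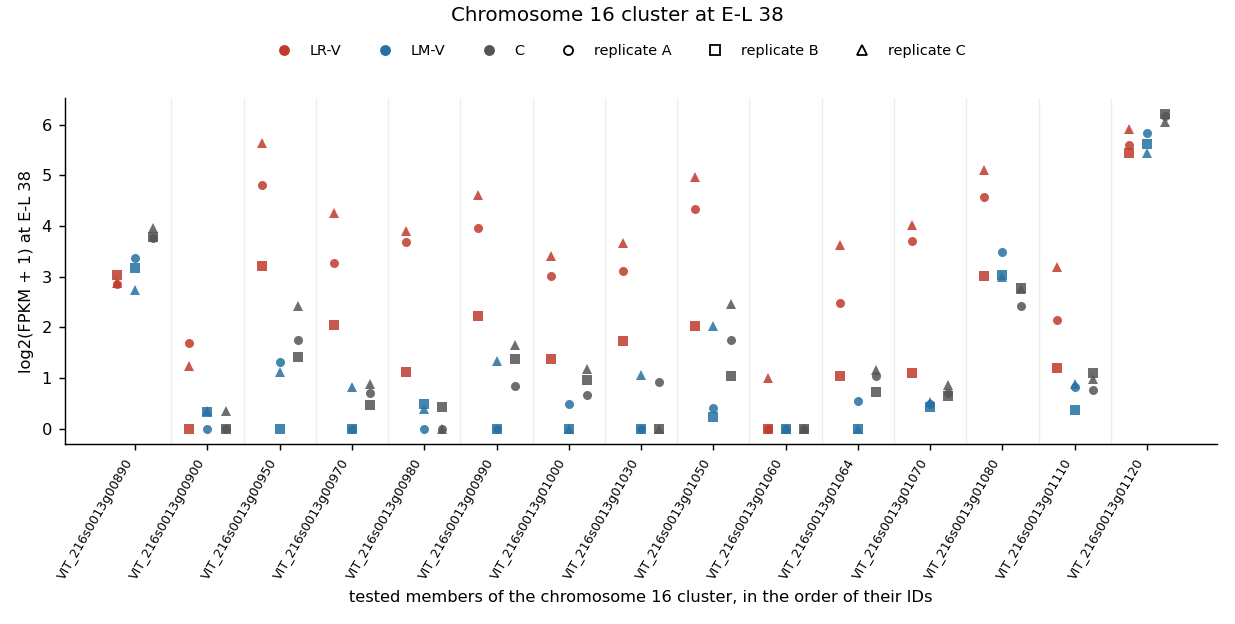
log2(FPKM + 1) at E-L 38 (y axis) of the 15 tested members of the chromosome 16 cluster (x axis, by ID) in LR-V, LM-V and C berries; symbols mark replicates A, B and C. In most genes LR-V replicates A and C lie above all others, with replicate B closer to C.

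Both end members of the cluster were lower. VIT_216s0013g00890 was lower in LR-V, with 6.25, 7.19 and 6.31 FPKM against 12.6, 12.7 and 14.5 FPKM in C at E-L 38 (-0.91 ± 0.25, adjusted p = 0.0156; 0.0585 without LR-V replicate C and 0.168 without the libraries of high index). The LM-V libraries of VIT_216s0013g00890, with 9.28, 8.04 and 5.70 FPKM, also lay below every C library, without a call. VIT_216s0013g01120, the most abundant of the cluster, was lower in both treatments, with 47.5, 42.4 and 59.5 FPKM in LR-V berries and 56.2, 48.1 and 42.7 FPKM in LM-V berries, against 71.4, 73.0 and 65.4 FPKM in C (adjusted p = 0.0223 in LR-V and 0.0288 in LM-V). Neither treatment overlapped with C, but the LR-V call was lost without LR-V replicate A (0.0686), LR-V replicate B (0.0935), C replicate A (0.0701) or C replicate B (0.0789), and the LM-V call without LM-V replicate B (0.086), LM-V replicate C (0.124), C replicate A (0.0883) or C replicate B (0.0977).

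LM-V berries at E-L 38 had 11 members lower than C and 1 higher, against 4.9% lower and 4.6% higher over all genes. In LR-V berries, 9 of the 57 tested members outside the cluster were lower and 3 higher, against 7.66% lower and 10.1% higher over all genes. The deepest fall in LM-V was that of VIT_207s0005g00820, with 9.24, 2.93 and 11.1 FPKM in LR-V berries and 3.65, 1.46 and 3.23 FPKM in LM-V berries, against 27.3, 26.0 and 15.9 FPKM in C. Neither treatment overlapped with C (LM-V -2.69 ± 0.32, adjusted p = 1.67e-05; LR-V -1.58 ± 0.32, adjusted p = 0.00174, and 0.0632 with only the groups compared). VIT_209s0002g09140, which rose in C between E-L 36 and E-L 37 and had the deepest fall in LR-V, had 0.43, 2.66 and 2.57 FPKM in LR-V berries and 0.86, 1.64 and 2.39 FPKM in LM-V berries, against 7.29, 8.47 and 12.3 FPKM in C (LM-V -1.99 ± 0.29, adjusted p = 0.000112; LR-V -1.93 ± 0.29, adjusted p = 7.69e-05). VIT_218s0001g03240 had 6.81, 7.53 and 7.38 FPKM in LR-V berries and 4.79, 4.91 and 7.14 FPKM in LM-V berries, against 11.0, 8.83 and 16.3 FPKM in C. Neither treatment overlapped with C (LM-V -0.96 ± 0.16, adjusted p = 0.000487; LR-V -0.62 ± 0.16, adjusted p = 0.00838). The LR-V call was lost without C replicate C (0.0641), with only the groups compared (0.0921) and without the libraries of high index (0.23). VIT_218s0001g05250 averaged 27.5 ± 4.70 FPKM in LR-V berries and 28.0 ± 4.31 in LM-V berries, against 40.5 ± 3.37 in C (adjusted p = 0.00217 in LR-V and 0.00597 in LM-V, the LM-V call being lost without LM-V replicate B, 0.0543). Little beyond membership of the family is annotated for these 4 genes. Green tissue marker sums, made up mostly of VIT_217s0000g03690, were higher in every LR-V and LM-V library than in every C library at this stage. The part of green tissue in these lower values was not tested.

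**Figure D5:**
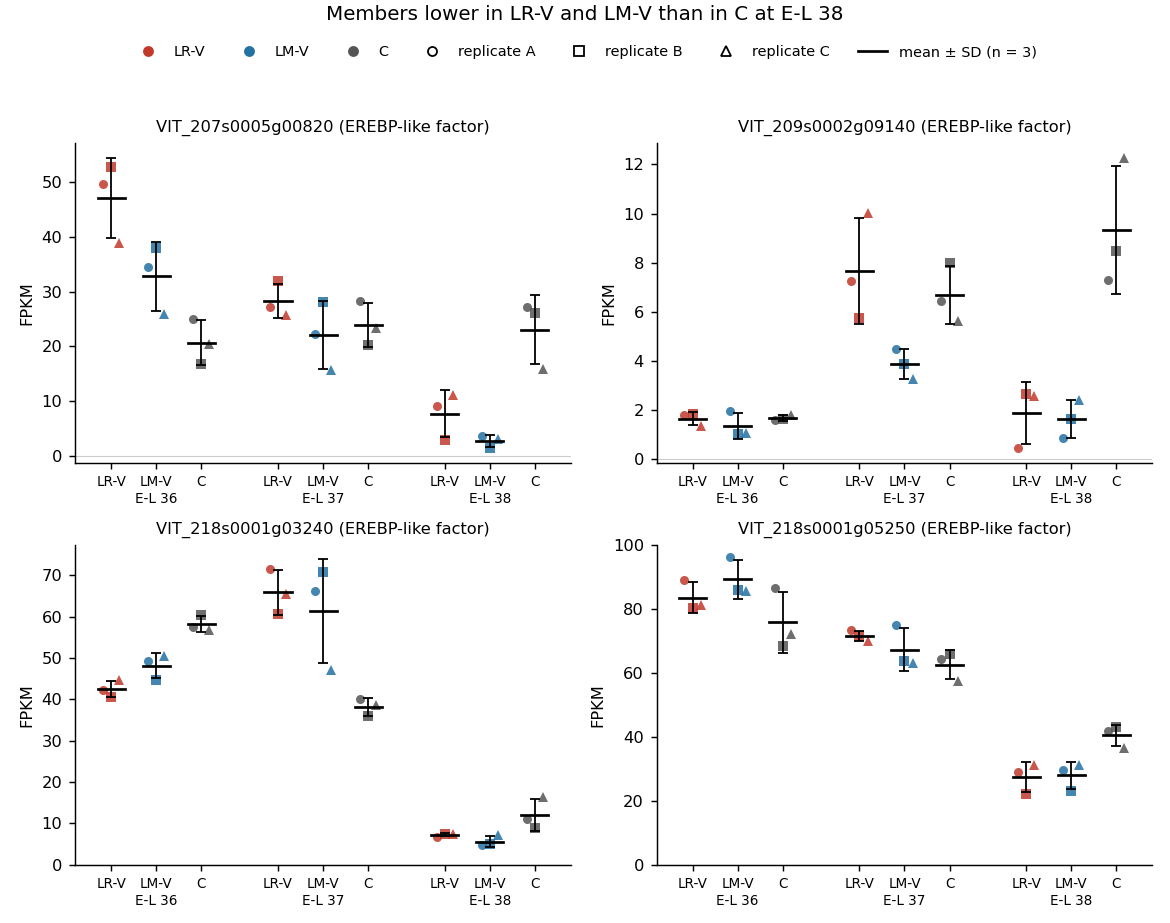
FPKM (y axis) of 4 family members in LR-V, LM-V and C berries at E-L 36, 37 and 38 (x axis); points are libraries, lines the mean and bars the SD of 3 replicates. At E-L 38 the LR-V and LM-V libraries lie below the C libraries in each gene.

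The ERF4-like VIT_212s0028g03270 had 36.8, 21.7 and 29.9 FPKM in LM-V against 52.1, 51.6 and 64.9 FPKM in C at E-L 38 (-0.93 ± 0.26, adjusted p = 0.0257), with 66.6, 25.8 and 78.8 FPKM in LR-V. The LM-V call held without LM-V replicate A only, with adjusted p values of 0.0536 to 0.142 without each other library. VIT_205s0029g00140 was the one member higher in LM-V, with 43.1, 29.9 and 27.9 FPKM against 20.6, 14.9 and 21.3 FPKM in C (0.79 ± 0.16, adjusted p = 0.00262), and its call held without any single library. VIT_209s0002g09120, named ERF003, averaged 0.603 ± 0.154 FPKM in LM-V and 2.28 ± 0.388 in C (-1.03, adjusted p = 0.0104). The count of 12 was 6 without LM-V replicate B and 7 without C replicate A or C replicate B at E-L 38. In LR-V, the AIL6-like VIT_200s0929g00020 had 12.7, 18.7 and 11.7 FPKM against 36.7, 36.4 and 27.3 FPKM in C (-1.18 ± 0.22, adjusted p = 0.000723), while LM-V with 31.9, 30.3 and 21.1 FPKM overlapped with C, and the LR-V call was lost without the libraries of high index (0.202). VIT_207s0031g00190, the drought responsive element binding protein gene, was higher in LR-V, with 24.95, 19.4 and 22.1 FPKM against 15.2, 9.69 and 9.84 FPKM in C (0.90 ± 0.20, adjusted p = 0.00298). Replicate B, with a low seed storage index, gave the lowest of the 3 values and exceeded all C libraries, and the call was lost without the libraries of high index (0.0581).

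Directly compared at E-L 38, LR-V and LM-V differed in 17 members, 16 of them higher in LR-V. Over all genes 7.45% were called (5.06% higher, 2.39% lower). The chromosome 16 cluster gave 10 of the 17 members. Outside it, VIT_204s0008g06000 had 36.6, 59.7 and 52.0 FPKM in LR-V against 18.2, 28.4 and 28.8 FPKM in LM-V (0.95 ± 0.16, adjusted p = 0.00161), with C at 31.9 to 44.1 FPKM, which overlapped with LR-V. VIT_211s0016g00660 had 3.95, 0.78 and 6.94 FPKM in LR-V against 0.20, 0 and 0 FPKM in LM-V (1.96 ± 0.39, adjusted p = 0.0042). The one member lower in LR-V was the AIL6-like VIT_200s0929g00020 (-0.91 ± 0.22, adjusted p = 0.0147), a call lost without LR-V replicate A (0.0602), LR-V replicate C (0.105), LM-V replicate A (0.0788) or LM-V replicate B (0.0512). This comparison rested strongly on few libraries, since 9 members were called without LR-V replicate C, 30 without LR-V replicate B, and 1 without both libraries of high seed storage index. It was also the one that depended most on the shared estimate of spread, as a fit of the 6 libraries alone called 0.

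A few members had higher values in the libraries with seed storage transcripts than in most others, and the 3 given here were chosen after their values were seen. The DREB2A-like VIT_218s0001g13320 ran from 5.08 to 22.6 FPKM (median 9.93) in the 6 libraries of high index, against 0 to 6.05 FPKM (median 0.25) in the other 21. The second DREB2A-like gene of this kind, VIT_204s0043g00610, ran from 1.32 to 7.56 FPKM against 0 to 0.99 FPKM. The group VII factor RAP2-3, VIT_205s0077g01860, ran from 1.99 to 10.1 FPKM against 0.1 to 2.78 FPKM. It was also called higher in LR-V at E-L 38 (9.31, 2.61 and 6.73 FPKM against 1.19, 1.64 and 0.53 FPKM in C, adjusted p = 0.0353), and the call held without LR-V replicate B only. Neither DREB2A-like gene was called in any comparison. In contrast, the DREB2A-like VIT_213s0067g01960 was expressed at 12.7 to 24.9 FPKM in every library, and it was higher in LR-V at E-L 38, with 20.6, 16.4 and 24.9 FPKM against 13.4, 13.8 and 13.6 FPKM in C (0.55, adjusted p = 0.0024, but 0.0537 with only the groups compared and 0.409 without the libraries of high index).

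Between E-L 36 and E-L 37 the effect of LR-V on the members changed for 7 genes (5 to higher, 2 to lower values; 4.54% of all genes, 1.05% to higher and 3.49% to lower), and between E-L 37 and E-L 38 for 17 genes (8 and 9; 7.7%, 5.55% to higher and 2.15% to lower). For LM-V the first count was 0 (0.0405% of all genes, 0.0202% in each direction). Beside it, 14 members had an unadjusted p under 0.05, a count not made over all genes. The second count was 7, with 1 to higher and 6 to lower values (3.81% of all genes, 2.39% to higher and 1.41% to lower). VIT_218s0001g03240 changed most clearly. Its LR-V effect was 1.22 ± 0.22 higher at E-L 37 than at E-L 36 (adjusted p = 0.00381) and changed by -1.39 ± 0.22 at E-L 38 relative to E-L 37 (adjusted p = 0.000544), and its LM-V effect was also lower at the last step (-1.61 ± 0.22, adjusted p = 0.000243). All 3 of these calls held without any single library, and the second was lost without the libraries of high seed storage index (0.0608). VIT_206s0004g08190 (-1.77 ± 0.36, adjusted p = 0.00788) and VIT_218s0001g10150 (-1.34 ± 0.28, adjusted p = 0.00934) went the other way between E-L 36 and E-L 37, and were called higher in LR-V than in C at E-L 36. The 7 became 4 without LR-V replicate A at E-L 36 or LR-V replicate C at E-L 37, and the 17 became 10 without C replicate B at E-L 37 or C replicate A at E-L 38 and 11 without C replicate C at E-L 37 or C replicate B at E-L 38. For LM-V the 0 became 1 without LM-V replicate C or C replicate C at E-L 37.

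Ethylene itself is made from ACC by ACC synthase (ACS) and ACC oxidase (ACO), and is perceived by ETR and ERS receptors that act through CTR1, EIN2 and EIN3 upstream of many ERF genes, with EBF proteins targeting EIN3 for degradation. Of 62 genes annotated to these steps, 45 were tested, and 27 of the 62 and 23 of the 45 carried the words for CTR1. LR-V berries had 7 higher and 2 lower at E-L 36 (20% of the list, against 5.54% of all genes), 0 and 2 at E-L 37 (4.44% against 5.01%; 1 and 1 with scaling by median of ratios) and 7 and 4 at E-L 38 (24.4% against 17.8%). LM-V berries had 0, 1 (lower) and 7 (4 higher, 3 lower) called, or 0%, 2.22% and 15.6% of the list against 0.0708%, 0.572% and 9.5% of all genes. The CTR1 entries gave 3 higher and 2 lower of the LR-V calls at E-L 36. At E-L 38 they gave 4 higher and 1 lower in LR-V, and 3 higher and 2 lower in LM-V. Between E-L 37 and E-L 36 in C, 16 were higher and 3 lower (42.2% against 37.5%; 11 and 6 with scaling by median of ratios), a share near that of all genes. At E-L 36, when the ABR1-like genes were high in LR-V, the ACO gene VIT_210s0116g00410 had 3.30, 8.65 and 3.70 FPKM in LR-V berries and 2.81, 2.24 and 1.03 FPKM in LM-V berries, against 0.82, 0.08 and 0.78 FPKM in C. LR-V exceeded both other groups in every library (1.93 ± 0.28 against C, adjusted p = 0.00021). The only tested ACS gene, VIT_202s0025g00360, had 8.71, 5.05 and 3.61 FPKM in LR-V against 2.39, 0.48 and 1.59 FPKM in C (1.46 ± 0.42, adjusted p = 0.0439), and 2 of 5 receptor genes were higher. At E-L 38 a second ACO gene, VIT_211s0016g02380, was lower in LR-V, with 1.20, 1.88 and 1.18 FPKM against 10.4, 15.0 and 9.27 FPKM in C (-2.36 ± 0.52, adjusted p = 0.00333). VIT_210s0116g00410 was again higher, at low values of 1.09, 1.01 and 1.3 FPKM in LR-V against 0.08, 0 and 0 FPKM in C (1.05 ± 0.28, adjusted p = 0.0109). No C library of any stage reached FPKM 1 for this gene. It was thus tested only through treated libraries, and its place in the counts is no independent support. The EBF gene VIT_211s0016g05410 was higher in both treatments at E-L 38, with 68.7 ± 2.98 FPKM in LR-V berries and 73.7 ± 3.31 in LM-V berries, against 46.0 ± 1.41 in C (adjusted p = 9.84e-05 in LR-V and 3.2e-05 in LM-V).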

How the data were processed

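The authors sequenced RNA of deseeded berries, mapped 50-bp reads to the V2 grapevine assembly by Bowtie (version 2.2.5 of Bowtie2 in the submitters' processing notes) and deposited FPKM values for each gene and library. Which program computed FPKM is not stated. log2(FPKM + 1) was tested for the 19761 genes that reached FPKM 1 in 3 or more libraries, using limma 3.58.1 (trend, robust, R 4.3.3) and a model of 9 group means with one shared estimate of spread; p-values were adjusted over all these genes by the Benjamini-Hochberg method. Fold changes are on this scale and understate changes of low genes. Members and gene lists were chosen with earlier results of these data known. Genes were named by smallest adjusted p (up to 10 per treatment comparison, up to 4 per difference of effects), largest change in ripening (up to 8 per direction) or highest mean (6); other genes are given as members of a group. Alternatives were another pseudocount (0.1), no filter, median-of-ratios scaling, a replicate block, only the groups compared, a seed storage covariate, leaving out libraries, limma without trend, and a rebuilt NOISeq-like rule. The deposited annotation columns gave gene roles, with position also used in the chromosome 16 run, and 29 members matched a RefSeq gene. No sequences or coordinates were used, and the planned motif searches were not run.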

Additional observations from a re-analysis of the deposited data

Results flagged for a closer look

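The 12 results below have a treatment effect that differed between consecutive stages by limma's test of the difference itself, given as the log2 effect at the later stage minus that at the earlier one. For LR-V at E-L 37 minus E-L 36 these were VIT_218s0001g03240 (1.22, adjusted p = 0.00381), VIT_206s0004g08190 (-1.77, 0.00788), VIT_218s0001g10150 (-1.34, 0.00934) and the CBF1-like VIT_202s0025g04440 (1.17, 0.0115). For LR-V at E-L 38 minus E-L 37 they were VIT_218s0001g03240 (-1.39, 0.000544), VIT_209s0002g09140 (-2.09, 0.00269), the chromosome 16 cluster gene VIT_216s0013g00970 (2.88, 0.00463) and VIT_202s0025g04440 (-1.23, 0.00465). For LM-V at E-L 38 minus E-L 37 they were VIT_218s0001g03240 (-1.61, 0.000243), VIT_207s0005g00820 (-2.55, 0.00316), the CBF3-like VIT_216s0100g00380 (-2.56, 0.0095) and VIT_211s0016g00660 (-2.38, 0.0172). The consecutive differences share the libraries of E-L 37, and both treatments share the C libraries. VIT_202s0025g04440 reached FPKM 1 only in LR-V libraries, so its results come from a gene tested through that treatment alone.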

How the results depend on the processing

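Of 2168 alternative values for 142 results of named genes, 1764 kept their direction and side of the threshold, 404 lost the call and 0 reversed. The calls lost numbered 57 with only the groups compared, 57 without the libraries with high seed storage transcripts, 22 with a pseudocount of 0.1, 8 without the filter, 8 with the seed storage covariate, 7 with median-of-ratios scaling and 5 with limma without trend and robust fitting, and 60 results were lost without at least 1 library. With only the groups compared, members called numbered 6 for LR-V against C at E-L 37, 15 for LR-V against C at E-L 38, 0 for LM-V against C at E-L 37, 0 for LR-V against LM-V at E-L 38 and 8 for the LR-V effect at E-L 38 minus that at E-L 37. Without the libraries with high seed storage transcripts these counts were 4, 7, 0, 1 and 2. For LM-V against C at E-L 37, 0 were called with a pseudocount of 0.1 and 2 with median-of-ratios scaling, which also gave 6 ethylene pathway genes for LR-V against LM-V at E-L 38. The NOISeq-like rule picked 3, 5 and 3 members for LM-V against C at E-L 36, 37 and 38, 4 and 2 for LR-V against LM-V at E-L 36 and 37, and 10 and 15 for the ripening steps in C. Counts by this rule were not made over all genes. Leaving out single libraries gave 3 to 7, 7 to 11 and 19 to 35 members for LR-V against C at E-L 36, 37 and 38, 0, 0 to 3 and 6 to 9 for LM-V against C, and 0 to 1, 0 and 9 to 30 for LR-V against LM-V. It gave 21 to 27 and 19 to 24 for the ripening steps, 4 to 10 and 10 to 24 for the differences of LR-V effects and 0 to 1 and 5 to 9 for those of LM-V. Apart from the dropped samples, the cause was not tested. In no comparison did all libraries of the same letter deviate together (r above 0.1 for each), so the letters were not taken as pairs; with the replicate block 8, 11 and 24 members were called for LR-V against C, 0, 1 and 12 for LM-V against C, 0, 0 and 16 for LR-V against LM-V, 32 and 26 for ripening, and 8, 17, 0 and 8 for the differences of effects. Without read counts, the precision at low FPKM is not known.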
